A study of Mus musculus with 94 samples.

Results

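The genes described here are the 45 symbols that begin with Nduf among the 20411 gene symbols counted in 2 depots of white fat, the epididymal (eWAT) and the inguinal (iWAT). Each had a mean of at least 1 CPM (counts relative to the size of the library) over the 47 libraries of a depot, so the minimum level removed none. Most encode subunits of respiratory complex I, 7 encode assembly factors that build it, and 2, Ndufa4 and Ndufa4l2, carry the family name but belong to complex IV. By position, 10 belong to the N module, 6 to the Q module, 9 to the proximal and 10 to the distal part of the membrane arm, and Ndufab1 is the acyl carrier. Ndufb1, Ndufb1-ps, Ndufaf8 and the 7 subunits encoded in mitochondrial DNA were not analysed here.

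Complex I takes electrons from NADH in the mitochondrial matrix, passes them along iron-sulphur clusters to ubiquinone and pumps protons across the inner membrane. The N module binds NADH, the Q module reduces ubiquinone, and the membrane arm holds the proton pumps, surrounded by accessory subunits. In white fat cells the respiratory chain supplies ATP and helps to provide carbon for lipid synthesis, and in brown and beige fat cells it also drives heat production.

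The study followed obesity and its reversal in 47 male C57BL/6JBomTac mice, kept 3 per cage where they did not fight. Lean controls ate the low-fat diet D12450J throughout. The other mice were moved at 10 weeks of age to the high-fat diet D12492 for 18 weeks. They were sampled then (obese, n = 5) or after 2, 6 or 12 further weeks back on the low-fat diet (regression, n = 6 each). Each time had 6 lean mice of the same age, which was 28 weeks at obesity and 30, 34 and 40 weeks later, and both depots of every mouse were sequenced (94 libraries). The obesity was induced by diet in a single strain and in males alone. The mice of a group are separate animals, but which of them shared a cage is not given.

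Promoter stretches of 7 members are shown first. They were read from RefSeq promoters on GRCm38.p6, each running from 250 bases before to 50 after the annotated start, on the strand of the gene. Capitals mark 2 motifs that recur in these promoters: GCATGCGC, part of the palindromic motif of the factor Nrf1, and AAGATGGC, the core motif of Yy1. In Ndufa11 and Ndufaf4 the capitals cover overlapping matches of GCATGCGC on both strands.
Ndufa6, chr15:82354347-82354394, minus strand: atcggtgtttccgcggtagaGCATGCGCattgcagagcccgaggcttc
Ndufa8, chr2:36049339-36049366, minus strand: gcttgcgcgtcgctggagacGCATGCGC
Ndufa11, chr17:56717682-56717731, plus strand: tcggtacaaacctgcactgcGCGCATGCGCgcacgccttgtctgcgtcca
Ndufaf4, chr4:24897950-24897999, plus strand: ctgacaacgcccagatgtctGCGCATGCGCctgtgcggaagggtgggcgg
Ndufb8, chr19:44555393-44555415, minus strand: cggagaaggtgAAGATGGCtgcc
Ndufs4, chr13:114388045-114388070, minus strand: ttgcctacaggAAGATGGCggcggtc
Ndufs7, chr10:80249462-80249491, plus strand: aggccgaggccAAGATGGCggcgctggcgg

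A promoter was found for 39 of the 45 members (Ndufa2, Ndufa4l2, Ndufaf6, Ndufb9 and Ndufs1 were among those without one), and both strands were searched. AAGATGGC was present in 7 of the 39 (17.9%), against 2.88% of 27025 promoters and 4.24% of the 11120 promoters of tested genes. All 7 matches lay on the strand of the gene and after its annotated start, beginning at base 23 to 39 from it. GCATGCGC was present in 5 (12.8%), namely Ndufa6, Ndufa8, Ndufa11, Ndufaf4 and Ndufaf5, against 2.8% of all promoters and 4.94% of those of tested genes. The motif CCGGAAG of the ETS family, to which Gabpa belongs, was present in 12.8% of the members' promoters and in 16.3% of those of tested genes. The sequence TCAAGGTCA, bound by the oestrogen-related receptors, was in 0 of 39 and in 0.407% of all promoters. GGGCGG, the core of the Sp1 motif, was in 51.3% of the members' promoters and 61.7% of those of tested genes. A match is a stretch of letters and does not show that a factor binds there.

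The libraries held from 1318944 to 25866576 counted reads in eWAT and from 6268458 to 34327987 in iWAT. The shallowest, replicate 2 of the 2-week regression group in eWAT, stands apart below. Between 0.0907% and 0.197% of eWAT reads and between 0.0970% and 0.233% of iWAT reads fell on the 45 members. All 12 adipocyte markers had reads in every library of both depots. In bulk tissue, fewer cells of a type and less RNA per cell cannot be told apart. Reads of processed pseudogenes and of overlapping or antisense genes cannot be told apart from those of the members, since the sources used here do not state the counting rules.

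In lean fat the members differed widely in level per length of transcript, also within each part of the complex. Over the 24 lean mice, 3 membrane arm subunits led in eWAT, with 112 ± 13 CPM per kilobase (SD) of Ndufb10, 111 ± 13 of Ndufc2 and 109 ± 21 of Ndufb9. These neighbours in the order differed by less than their spread. The lowest levels were those of the assembly factor Ndufaf6 (2.65 ± 0.84 CPM per kilobase), the membrane arm subunit Ndufc1 (3.25 ± 1.1) and the assembly factor Ndufaf5 (3.82 ± 0.59). The membrane arm subunits Ndufb4 (7.79 ± 1.3) and Ndufs5 (8.70 ± 1.6) were low as well. The core subunits of the matrix arm ran from 17.8 ± 3.0 for Ndufs8 to 55.7 ± 7.4 for Ndufv1, the subunit that binds NADH. The order in iWAT was led by Ndufc2 (138 ± 24) and Ndufb9 (134 ± 33) and closed by Ndufaf6 (3.13 ± 0.95). In lean mice 0 members passed the test of 12 weeks against the obesity time in either depot, by edgeR or by DESeq2. By edgeR 0.105% and 0.496% of all genes were called there. Its unadjusted p was under 0.05 for 2 of 45 members in eWAT and 0 in iWAT, against 12.4% and 11.3% of all genes. The estimates were below 0 for 41 of 45 members in eWAT and 16 in iWAT, against 46.8% and 47.4% of all genes.

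Lean eWAT held less complex I RNA than lean iWAT of the same mice. Of the 45 members, 41 were lower in eWAT (edgeR with the mouse as a term, adjusted p under 0.05) with a median log2 difference of -0.35, where 31.2% of all genes tested were lower. Ndufs1, which carries iron-sulphur clusters of the N module, averaged 87.8 ± 11.9 CPM (SD) in eWAT and 124 ± 26.6 in iWAT, and was lower in eWAT in 22 of 24 mice. CPM, also those of the markers below, were scaled within each depot, while the test scaled the libraries of both depots together. In that test the log2 difference of Ndufs1 was -0.55 ± 0.05 (SE, adjusted p = 1.66e-12). Ndufs4, an accessory subunit where the N and Q modules meet, differed by -0.60 ± 0.07 (adjusted p = 2.8e-10). The 4 members not called were Ndufa7, Ndufaf2, Ndufs5 and Ndufa4l2. Signals of other cells moved with this difference. All 8 brown and beige fat markers, whose cells are rich in mitochondria, were lower in eWAT. Their summed level was 26.5 to 63.0 CPM in lean eWAT and 114 to 700 CPM in lean iWAT, without overlap. These markers were Ucp1, Cidea, Elovl3, Dio2, Cox7a1, Cox8b, Ppargc1a and Otop1. Cox7a1 and Cox8b also count in complex IV below and Ppargc1a among the regulators, so this signal is not separate from the respiratory chain. All 12 skeletal muscle markers were lower in eWAT, and their summed level in lean iWAT ran from 12.1 to 45708 CPM between libraries. All 8 fibroblast and progenitor markers were lower in eWAT as well. The part of the brown and beige and the fibroblast signals in the difference was not tested. In the 5 lean mice whose iWAT muscle signal was under 1 log2 CPM, a comparison added after the data were seen, 2 members were called (limma; Ndufaf5 and Ndufv2) and the median difference was -0.14. Over all genes 2466 were called there, against 8644 by limma in all 24 lean mice.

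Complex I RNA was lower in obese than in lean eWAT in all of its modules. Of the 45 members, 32 fell and none rose in obese against lean mice (edgeR quasi-likelihood test, adjusted p under 0.05), with a median log2 fold change of -0.60, while 9.31% of the 14323 genes tested fell and their median was near 0. The groups did not overlap for 14 members, all lower in obese mice, against 3.48% of all genes. The mean log2 CPM of the members was 4.35 to 5.02 in the 6 lean libraries (median 4.67) and 3.70, 4.03, 4.13, 4.24 and 4.43 in the 5 obese ones. Obese replicate 4 was the lowest of all, and the highest obese library alone entered the lean range. The authors' deposited table called 35 members lower and 0 higher.

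**Figure D1:**
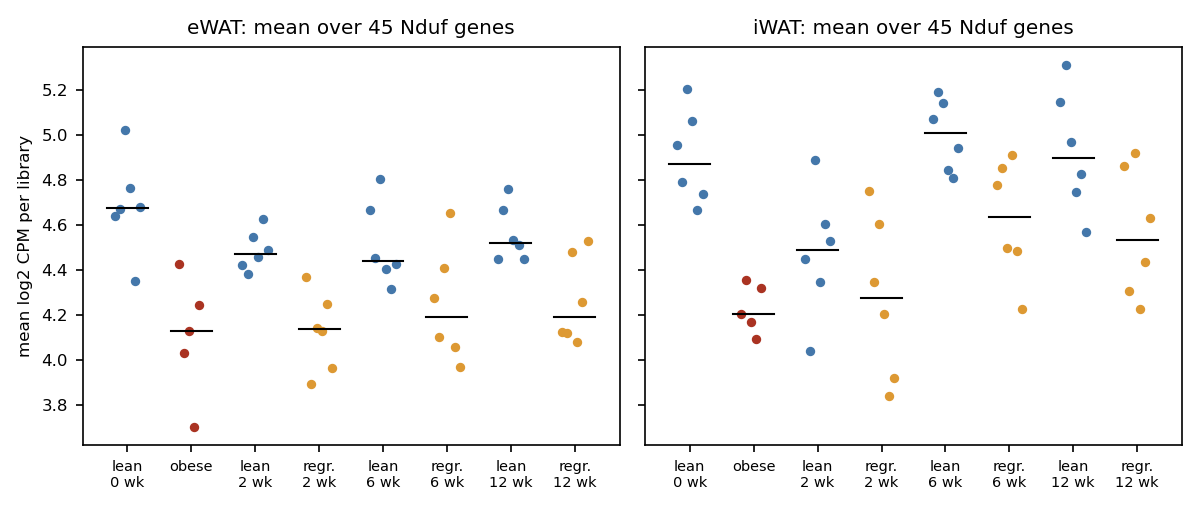
Mean log2 CPM of the 45 Nduf genes in each library (points) for the 8 groups of eWAT and iWAT, with lean libraries in blue, obese in red, regression in orange and the group median as a black bar. Obese eWAT libraries lie between 3.70 and 4.43 and obese iWAT libraries between 4.09 and 4.36. The median of the lean iWAT libraries at 2 weeks (4.49) lies below the medians of the other lean iWAT groups, while the libraries overlap.

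In eWAT all 7 core subunits encoded in the nucleus fell in obesity. Ndufs1 (chromosome 1, 63143596 to 63176833, minus strand, GRCm38) had 74.4, 94.3 and 103 CPM as lowest, median and highest lean value, and 41.5, 51.7, 61.7, 62.2 and 66.8 CPM in the obese mice. No obese library reached the lowest lean one, and the log2 fold change was -0.71 ± 0.12 (SE, adjusted p = 9.91e-05). Ndufv2, an iron-sulphur subunit beside Ndufv1, had 19.98, 23.97 and 31.9 CPM in lean mice and 9.25, 13.6, 15.4, 16.9 and 16.9 in obese ones. Here too the groups were apart, and Ndufv2 had the largest fall of the core (-0.81 ± 0.19, adjusted p = 0.00207). Ndufv1 was at -0.63 ± 0.14 and Ndufs3, a subunit of the Q module, at -0.60 ± 0.18. Ndufs7 (-0.54 ± 0.14) and Ndufs8 (-0.47 ± 0.13), which hold the last iron-sulphur clusters before ubiquinone, fell least. Obese replicate 1, at 37.0 CPM, lay within the lean range of Ndufs7 (27.9 to 50.7 CPM).

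Among accessory subunits of the matrix arm in eWAT, Ndufa6 had the smallest adjusted p of all members. Ndufa6 binds the acyl carrier protein to the N module, and its promoter stretch with GCATGCGC is printed above. Its lean values were 30.8, 36.7 and 46.4 CPM, and its obese values 16.6, 20.7, 22.0, 22.5 and 23.3 CPM. All obese libraries lay below all lean ones (-0.86 ± 0.14, adjusted p = 6.27e-05). Of the N module 9 of 10 members fell (median -0.72; Ndufv3 was not called), and of the Q module 6 of 6 (median -0.63).

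The membrane arm of eWAT held both the largest falls and members that were not called. Ndufb9 of the distal part (chromosome 15, 58933756 to 58939488, plus strand) had 61.3, 87.8 and 113 CPM in lean mice and 23.9, 38.5, 39.7, 47.1 and 60.9 in obese ones. The highest obese library lay just below the lowest lean one, and the log2 fold change was -1.07 ± 0.20 (adjusted p = 0.000185), the lowest of the 45. Ndufa1 of the proximal part fell by 1.00 ± 0.24 (adjusted p = 0.0023) on the log2 scale. Of the members with a printed promoter, Ndufb8 (-0.90 ± 0.18), Ndufa11 (-0.82 ± 0.20) and Ndufs4 (-0.52 ± 0.16) fell, and Ndufa8 was not called (-0.34 ± 0.14, adjusted p = 0.0767). In the distal part 8 of 10 fell (median -0.60), and in the proximal part 6 of 9 (median -0.80). Ndufb3, a distal subunit, was not called at -0.23 ± 0.13 (adjusted p = 0.236). Ndufab1, the acyl carrier that also serves mitochondrial fatty acid synthesis, had 35.5, 46.8 and 57.5 CPM in lean mice and 17.6, 26.8, 29.0, 30.0 and 35.6 in obese ones. It fell by 0.72 ± 0.20 (adjusted p = 0.0076), with obese replicate 1 touching the lean range.

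Of the assembly factors of eWAT 1 of 7 fell in obesity, with a median of -0.36, and all 7 estimates were below 0. The member that fell was Ndufaf7, a mitochondrial methyltransferase (-0.41 ± 0.11, adjusted p = 0.00642). Ndufaf4, which acts with Ndufaf3 on the Q module, had 25.2, 29.2 and 36.0 CPM in lean mice against 23.4, 24.5, 25.2, 26.3 and 29.3 in obese ones. Its groups overlapped (-0.22 ± 0.13, adjusted p = 0.248). Ndufaf1, which assembles the membrane arm with Ecsit, was at -0.20 ± 0.15 (adjusted p = 0.351) and Ndufaf6 at -0.42 ± 0.25 (adjusted p = 0.237). Whether assembly factors differed from subunits was not tested.

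Of the complex IV pair, 1 member fell in obese eWAT. Ndufa4 (chromosome 6, 11900292 to 11907497, minus strand) had 29.97, 45.04 and 63.97 CPM in lean mice and 14.4, 19.7, 24.8, 25.4 and 30.6 in obese ones, where the highest obese library just entered the lean range. It fell by 0.97 ± 0.21 (adjusted p = 0.000772). Its paralogue Ndufa4l2 (chromosome 10, 127514967 to 127517154, plus strand), known as a target of hypoxia-inducible factor, had 6.14, 10.3 and 16.2 CPM in lean mice and 10.0, 10.2, 14.3, 14.8 and 15.5 in obese ones. It was the only member with an estimate above 0 (0.27 ± 0.22, adjusted p = 0.396), and its obese values lay within the lean range.

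Macrophage markers moved with these falls in eWAT. All 10 rose in obese mice, and their summed level was 499 to 665 CPM in lean and 829.2 to 3936 CPM in obese libraries, highest in replicate 4. That library also had the lowest summed adipocyte level, 23730 CPM against 34313 to 58754 in lean mice, where 3 of 12 adipocyte markers fell. Without obese replicate 4, 20 members were called, and with the macrophage signal of each library as a term 1 was (Ndufa6). Over all genes the calls in either direction went from 3346 to 1722 without that library, and with the macrophage term their number was 11.8% of the 3346. Since the macrophage levels of the groups did not overlap, that term and obesity cannot be told apart here. With the adipocyte signal as a term, 19 members and 1246 of all genes were called. Of the fibroblast and progenitor markers 7 of 8 rose in obese eWAT (1064 to 1554 CPM summed in lean and 1554 to 2510 in obese libraries, which touched), and their part in the falls was not tested.

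In obese iWAT 38 of the 45 members fell and none rose, with a median log2 fold change of -0.72, against 15.5% of the 13899 genes tested that fell. The groups did not overlap for 33 members, all lower in obese mice, against 10.2% of all genes. The mean log2 CPM of the members was 4.67 to 5.20 in lean libraries (median 4.87) and 4.09, 4.17, 4.21, 4.32 and 4.36 in obese ones, so the sets were apart. Leaving out single libraries gave 29 to 38 called members. The authors' deposited table also had 38 lower and 0 higher.

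In iWAT the lowest fold changes belonged to Ndufa10, Ndufa5 and Ndufs1. Ndufa10, a proximal membrane arm subunit (chromosome 1, 92439010 to 92473860, minus strand), had 92.5, 115 and 129 CPM in lean mice and 43.2, 43.4, 48.1, 58.1 and 58.2 in obese ones. Every obese library lay far below the lowest lean one (-1.17 ± 0.21, adjusted p = 7.29e-05). Ndufa5 of the Q module had 7.41, 10.6 and 16.2 CPM in lean mice and 3.66, 3.85, 5.34, 5.67 and 5.75 in obese ones, again without overlap (-1.11 ± 0.23, adjusted p = 0.000356). Ndufs1 had 111, 132 and 157 CPM in lean mice and 55.5, 55.5, 58.6, 68.1 and 83.6 in obese ones (-1.05 ± 0.18, adjusted p = 2.95e-05). Obese replicate 5 was the highest but remained below all lean libraries.

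All 7 core subunits fell in iWAT too, with a median of -0.88. Ndufv2 fell by 0.98 ± 0.19 on the log2 scale, Ndufv1 by 0.88 ± 0.17, Ndufs7 by 0.75 ± 0.16, Ndufs3 by 0.66 ± 0.13 and Ndufs8 by 0.59 ± 0.18. By module, 9 of 10 N module members, 6 of 6 of the Q module, 7 of 9 of the proximal and 9 of 10 of the distal membrane arm fell. Ndufab1 fell by 0.94 ± 0.20 (adjusted p = 0.00042). Of the members with a printed promoter, Ndufs4 (-1.03 ± 0.21), Ndufb8 (-0.96 ± 0.21), Ndufa6 (-0.77 ± 0.18), Ndufa8 (-0.75 ± 0.15) and Ndufs7 fell, and Ndufa11 was not called (-0.40 ± 0.18, adjusted p = 0.0917). Of the assembly factors 5 of 7 fell (median -0.54). The lowest of these called was Ndufaf4, with 25.1, 39.6 and 43.8 CPM in lean mice and 20.8, 22.2, 22.7, 23.1 and 24.1 in obese ones (-0.74 ± 0.16, adjusted p = 0.00047). Ndufaf6 (-0.70 ± 0.30, adjusted p = 0.0754) and Ndufaf2, which acts late on the N module (-0.37 ± 0.18, adjusted p = 0.105), were not called.

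The members not called in obese iWAT were Ndufaf6, Ndufaf2, Ndufa2, Ndufb2, Ndufa11, Ndufc1 and Ndufa4l2. Ndufa2 of the N module was at -0.34 ± 0.20 (adjusted p = 0.197) and Ndufb2 of the distal arm at -0.33 ± 0.24 (adjusted p = 0.313). Ndufa4 fell by 0.86 ± 0.24 (adjusted p = 0.00599). Ndufa4l2 spread widely, with 5.58, 8.996, 11.3, 22.5 and 23.3 CPM in obese and 7.84, 10.97 and 11.9 in lean mice (0.46 ± 0.27, adjusted p = 0.208). Obese replicates 4 and 2 were above the lean range of Ndufa4l2 and replicate 3 below it.

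**Figure D2:**
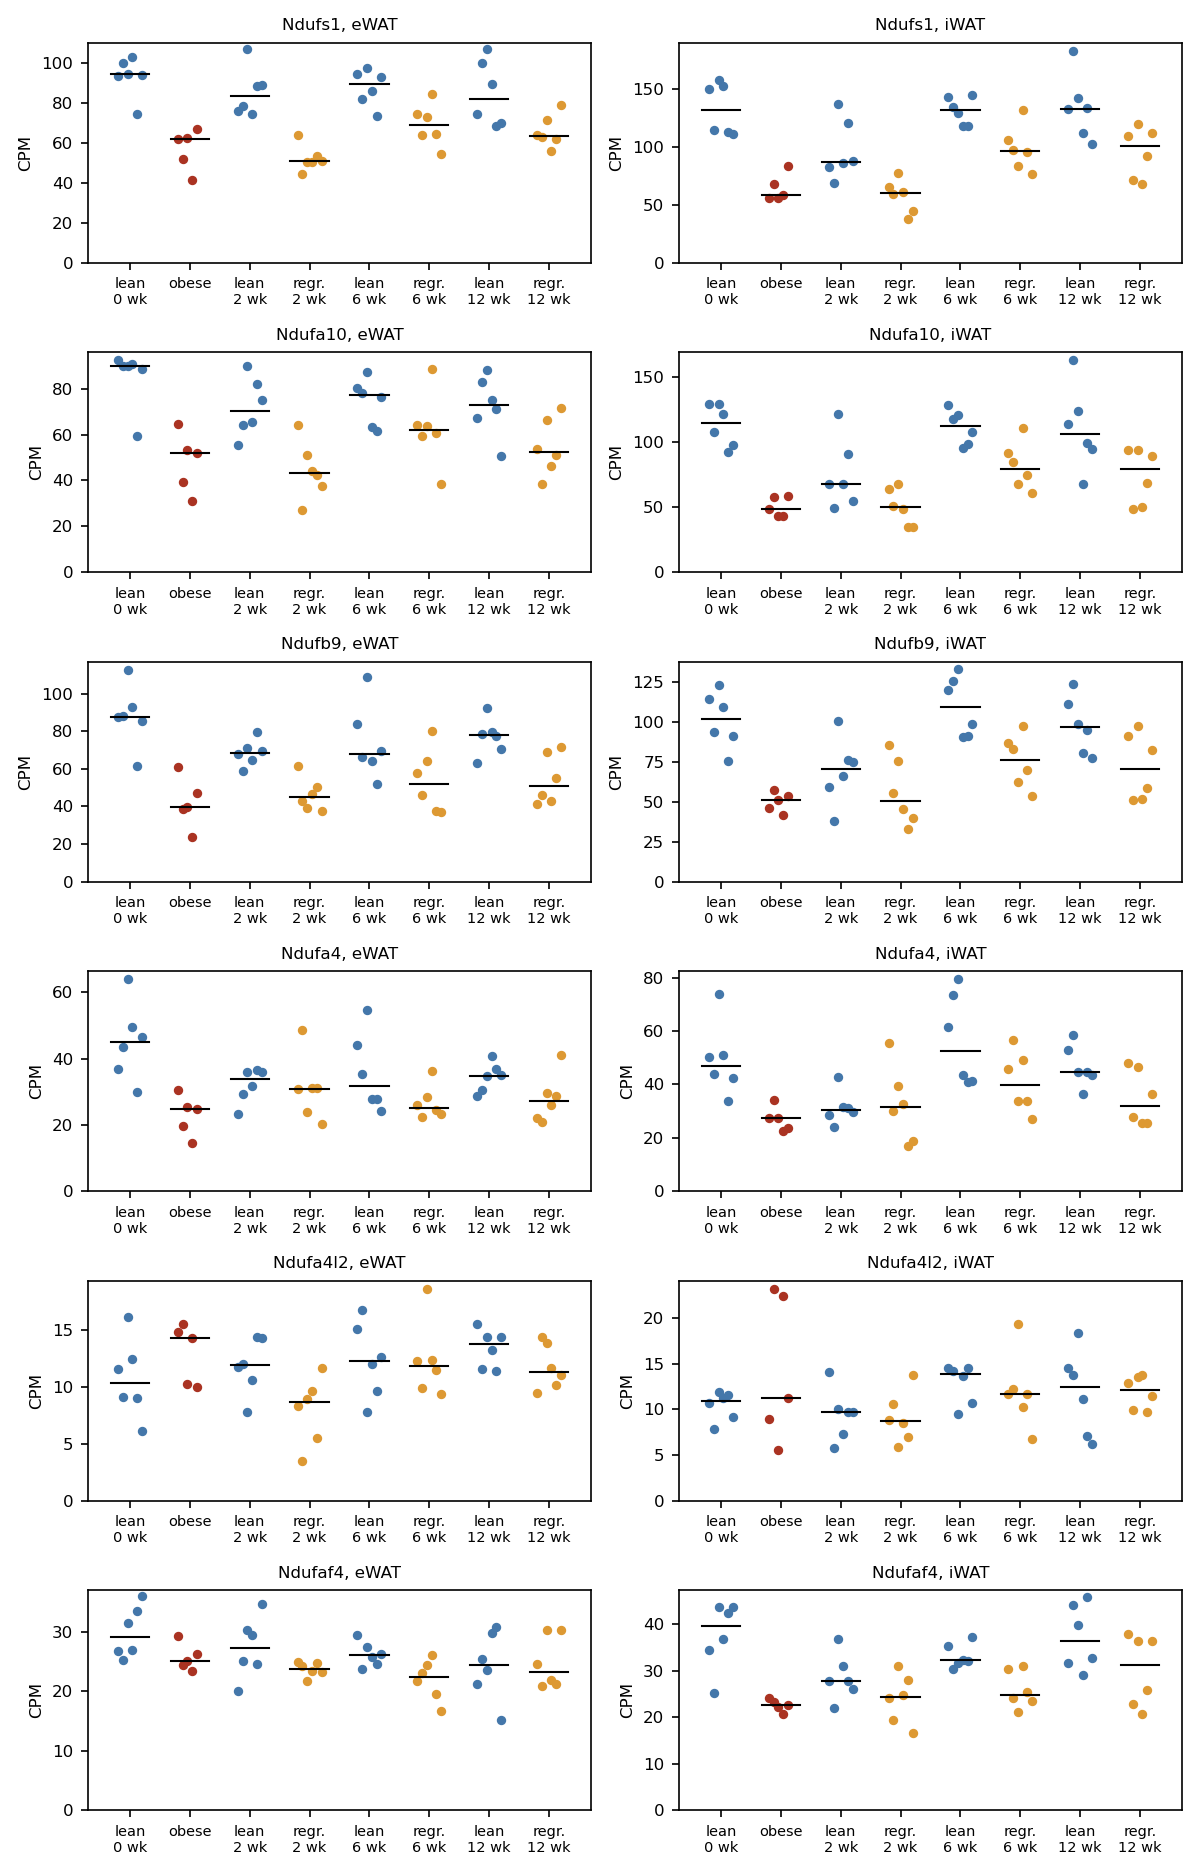
CPM of Ndufs1, Ndufa10, Ndufb9, Ndufa4, Ndufa4l2 and Ndufaf4 in each library (points) of the 8 groups of both depots, with lean libraries in blue, obese in red, regression in orange and the median as a black bar. In iWAT the obese values of Ndufs1 (55.5 to 83.6) and Ndufa10 (43.2 to 58.2) lie under all lean values of the same time, while those of Ndufa4l2 (5.58 to 23.3) run below and above them.

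Signals of other cells moved with obesity in iWAT as well. Of the brown and beige fat markers 7 of 8 fell, and their summed level was 247 to 648 CPM in lean and 59.0 to 156 in obese libraries. Of the macrophage markers 9 of 10 rose (median 1010 and highest 1240 CPM in lean, 1038 to 3528 in obese libraries), and 6 of 12 adipocyte markers fell while 1 rose. With the macrophage signal as a term 17 members were called, of which 16 were lower and Ndufa4l2 higher, and with the adipocyte signal 21 were. Over all genes the calls went from 4195 to 2188 and to 2826. All 8 fibroblast and progenitor markers rose, from a summed 2015 to 3981 CPM in lean to 5261 to 7831 in obese libraries, without overlap. The part of the brown and beige and the fibroblast signals in these falls was not tested.

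Both depots came from the same mice, and 28 members fell in both with obesity. Of all genes tested 9.31% fell in eWAT and 15.5% in iWAT, and the share that fell in both was not computed. Ndufa2, Ndufc1, Ndufb2 and Ndufa11 fell in eWAT and were not called in iWAT, 10 members fell in iWAT and were not called in eWAT, and Ndufaf6, Ndufa4l2 and Ndufaf2 were called in neither. The difference between the depots' responses itself passed the test for no member at any time, where 1.32%, 8.42%, 0.597% and 0.0542% of all 14749 genes did at obesity and after 2, 6 and 12 weeks. In that edgeR test 4, 3, 0 and 1 members had an unadjusted p under 0.05, as did 1684, 3490, 2215 and 2536 of all genes. By limma on each mouse's difference 0 members were called as well. The smallest p at obesity was that of Ndufaf4, whose change was 0.48 ± 0.15 less negative in eWAT (adjusted p = 0.116), followed by Ndufa8 (0.37 ± 0.14) and Ndufs4 (0.49 ± 0.20). After 2 weeks Ndufb7 (-0.45 ± 0.19, adjusted p = 0.133), Ndufv3 (-0.31 ± 0.15) and Ndufs7 (-0.33 ± 0.16) were more negative in eWAT. After 6 weeks Ndufa8 (0.21 ± 0.14) and Ndufs6 (0.40 ± 0.27) were among the smallest p-values, and after 12 weeks the smallest were those of Ndufaf4 (0.37 ± 0.15), Ndufv2 (0.33 ± 0.20) and Ndufa12 (0.27 ± 0.17).

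After 2 weeks back on the low-fat diet, 19 members were lower in regression than in lean eWAT and none was higher, against 17.1% of all genes that were lower. The median was -0.32, and the groups did not overlap for 6 members (5.65% of all genes). Ndufs1 had 74.3, 83.4 and 107 CPM in lean and 44.4, 50.8 and 64.0 in regression mice, with no overlap (-0.70 ± 0.12, adjusted p = 2.41e-05). Ndufb6 of the distal membrane arm had 35.0, 49.4 and 53.8 CPM against 10.4, 27.3 and 36.1, where only the highest regression library entered the lean range (-0.83 ± 0.19, adjusted p = 0.000808). Its lowest value came from replicate 2, the shallow library. Ndufa10 (-0.67 ± 0.18, adjusted p = 0.00294) and Ndufab1 (-0.66 ± 0.19) were lower as well.

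By position, 7 of 10 distal membrane arm members, 5 of 10 of the N module, 3 of 9 of the proximal arm and 1 of 6 of the Q module were lower in eWAT after 2 weeks. Ndufs1 and Ndufv1 were among the core subunits called. Ndufv2 was at 0.04 ± 0.18 (adjusted p = 0.912). The assembly factor Ndufaf1, not called in obese eWAT, was lower (-0.52 ± 0.14, adjusted p = 0.0036), and so was Ndufa4l2 (-0.53 ± 0.21, adjusted p = 0.0469). The highest estimates were those of Ndufa3 (0.39 ± 0.17, adjusted p = 0.0738), Ndufa2 (0.20 ± 0.18) and Ndufc1 (0.09 ± 0.27), none of them called. All 10 macrophage markers were higher, at 1142 to 3528 CPM against 515 to 752 in lean libraries, and with their signal as a term no member and 175 of all genes were called, against 5111 without it. The 2 macrophage ranges were again apart and cannot be told from the diet groups.

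In iWAT 5 members were lower after 2 weeks and none higher, a share close to the 9.37% of all genes that were lower, and the median was -0.15. The 5 were Ndufs1, Ndufa10, Ndufa8, Ndufab1 and Ndufaf1. Ndufs1 had 68.5, 86.7 and 137 CPM in lean and 37.5, 60.1 and 77.3 in regression mice, with overlap (-0.75 ± 0.17, adjusted p = 0.00166). The groups overlapped for every member, where 2.53% of all genes were apart and lower. Of the brown and beige fat markers 5 of 8 were lower (23.7 to 93.1 CPM summed in regression against 114 to 619 in lean libraries, without overlap) and of the macrophage markers 2 of 10 were higher (1849 to 4260 against 1120 to 2620 CPM). The part of the brown and beige signal was not tested. Skeletal muscle markers summed to 20.7 to 6583 CPM in lean (median 1185) and 8.72 to 2516 in regression libraries (median 40.5). Ndufa10 was lower by a log2 value of -0.59 ± 0.20 (adjusted p = 0.0353), and Ndufs4 was not called at -0.54 ± 0.20 (adjusted p = 0.0524). Ndufa1 (0.34 ± 0.25), Ndufa5 (0.23 ± 0.22) and Ndufa2 (0.23 ± 0.19) had the highest estimates, none called.

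The lean iWAT libraries of this time were themselves low. Their members' mean log2 CPM was 4.04 to 4.89 (median 4.49), against medians of 4.87 to 5.01 in the other lean iWAT groups. In a comparison with the lean mice of the obesity time, added after the data were seen, 45 of 45 estimates were below 0 and 1 member passed the test (Ndufs3, -0.54 ± 0.13, adjusted p = 0.0217), against 1.91% of all genes that were lower. The unadjusted p was under 0.05 for 34, against 28.3% of all genes in either direction. These lean libraries also had summed adipocyte levels of 20817 to 41110 CPM, against 36871 to 48443 at the obesity time, and macrophage levels of 1120 to 2620 CPM (median 1566) against a median of 1010 and a highest of 1240. Compared with all 24 lean mice of the depot, 34 members were lower after 2 weeks in iWAT, and the calls over all genes went from 2614 to 6438. In that comparison Ndufa4, at 0.05 ± 0.23 against its own lean group, was at -0.47 (adjusted p = 0.0342).

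Transcript length ran along with the 2-week differences. Across the 45 members in iWAT the Spearman correlation of log2 fold change with transcript length was -0.60, and it was -0.31 in eWAT. Over all genes the values were -0.02 and 0.04. In iWAT the median log2 fold change was 0.0021 for the 16 members with transcripts under 700 bases, -0.19 for the 15 from 700 up to 1200 bases and -0.34 for the 14 of 1200 bases or more, which hold 4 of the 5 called members. In obesity the correlation was 0.35 in eWAT and -0.22 in iWAT, where over all genes it was 0.14 and 0.16. The members share libraries and overlap in function, so these are descriptions, and the part of RNA quality in them was not tested.

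**Figure D3:**
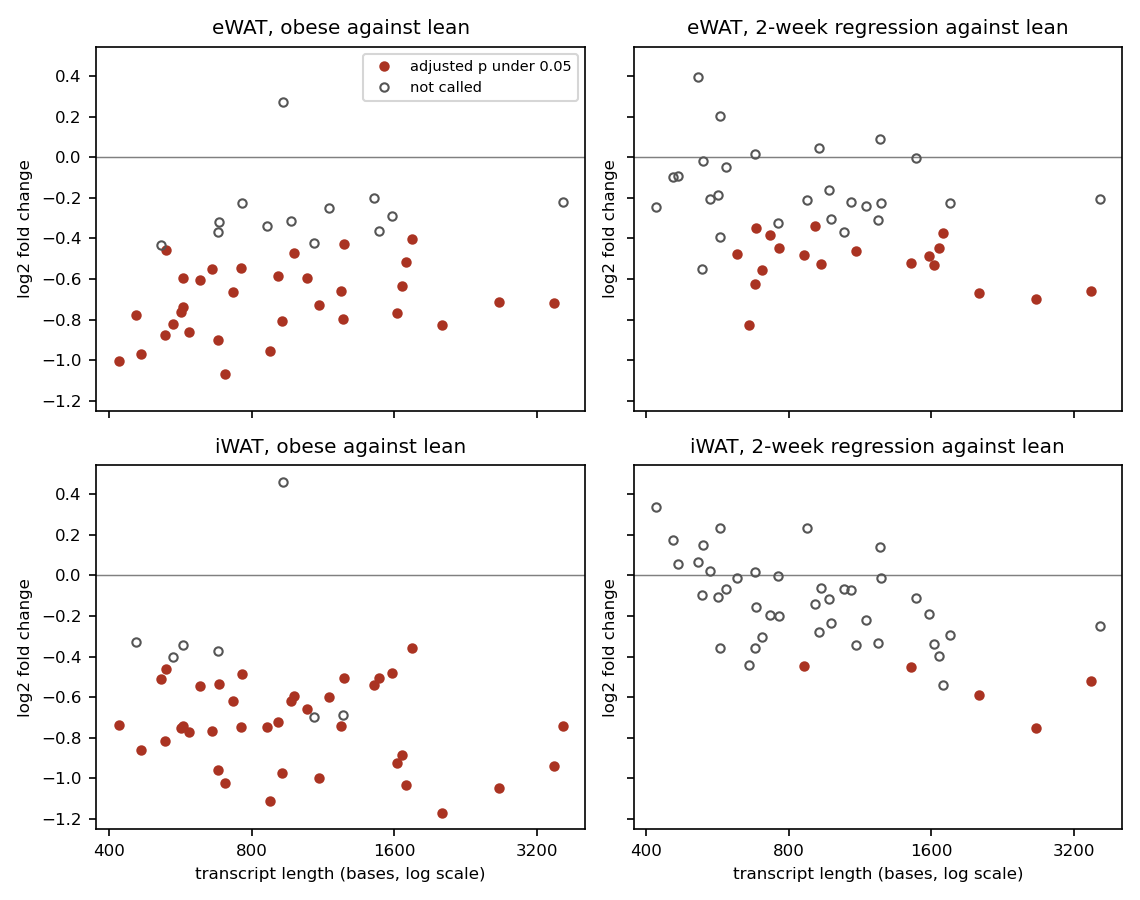
Log2 fold change against lean mice of each of the 45 Nduf genes (points) by transcript length in bases on a log axis, at obesity and after 2 weeks of regression in each depot. The points slope downward after 2 weeks in iWAT (Spearman -0.60) and upward in obese eWAT (0.35).

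After 6 weeks 2 members were lower in eWAT, Ndufa12 and Ndufa6, against 2.02% of all genes, and none was higher. The median was -0.26 and 43 of 45 estimates were below 0. Ndufa12, an accessory subunit of the N module, had 24.4, 25.5 and 34.5 CPM in lean and 15.6, 18.2 and 28.3 in regression mice, where replicate 4 entered the lean range (-0.49 ± 0.15, adjusted p = 0.0396). Ndufa6 was lower at -0.42 ± 0.14 (adjusted p = 0.0494). Ndufs5 (-0.59 ± 0.28, adjusted p = 0.177) and Ndufb9 (-0.46 ± 0.18, adjusted p = 0.112) were not called. The groups overlapped for every member (1.01% of all genes were apart and lower). Without regression replicate 4, 8 members were called, and the calls over all genes went from 1086 to 1585. The highest estimates were those of Ndufa4l2 and Ndufaf3, both near 0 (adjusted p = 0.997), and Ndufaf7 (-0.11 ± 0.10). All 10 macrophage markers were still higher (800 to 4033 CPM against 493 to 744).

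In iWAT no member passed edgeR's test after 6 weeks, against 0.482% of all genes that were lower, although all 45 estimates were below 0 (median -0.38). Of these 27 had an unadjusted p under 0.05, against 18% of all genes in either direction, and DESeq2 called 2. Ndufv2 came closest, with 29.5, 31.97 and 41.1 CPM in lean and 16.8, 22.3 and 27.7 in regression mice. Those groups did not overlap (-0.61 ± 0.18, adjusted p = 0.0643), and Ndufv2 was the 1 member of which this held, where 1.09% of all genes were apart and lower. Ndufb8 (-0.55 ± 0.19) and Ndufs6 (-0.55 ± 0.23) had the next lowest estimates. Ndufa4l2 (-0.10 ± 0.26), Ndufaf7 (-0.11 ± 0.13) and Ndufaf3 (-0.12 ± 0.12) had the highest. No macrophage marker was called at this time, and neither was any of the 8 brown and beige markers, whose estimates were all below 0 (72.0 to 376 CPM summed against 364 to 514 in lean libraries). With the adipocyte signal as a term 25 members were called, and the calls over all genes went from 144 to 1190. Skeletal muscle markers summed to 41.0 to 45708 CPM in lean (median 5030) and 19.5 to 11655 in regression libraries (median 371). Their iWAT medians ran the other way at obesity, at 1012 CPM in lean and 2239 in obese libraries. After 12 weeks they were 1061 CPM in lean and 1548 in regression libraries. The part of muscle RNA alone was not tested.

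After 12 weeks 5 members were lower in eWAT, against 4.51% of all genes, and none was higher. Ndufb3, Ndufs1, Ndufs4 and Ndufv1 were among them, and the median over the 45 was -0.30. Ndufs4 had 17.3, 21.9 and 25.1 CPM in lean and 10.4, 15.9 and 17.3 in regression mice (-0.48 ± 0.15, adjusted p = 0.0234). Ndufb3 had 67.3, 77.6 and 82.6 CPM against 48.3, 57.7 and 66.1 (-0.39 ± 0.13, adjusted p = 0.0345). These were the 2 members whose groups did not overlap (0.726% of all genes). Ndufv1 (-0.45 ± 0.13, adjusted p = 0.0189) and Ndufs1 (-0.36 ± 0.12) were lower with overlapping groups. Ndufb9 (-0.50 ± 0.18, adjusted p = 0.058) and Ndufb6 (-0.48 ± 0.19, adjusted p = 0.077), among the lowest estimates, were not called. The highest were those of Ndufaf5 (0.11 ± 0.25), Ndufaf4 (0.03 ± 0.13) and Ndufaf2 (-0.09 ± 0.19). The count ran from 0, without lean replicate 3 or without regression replicate 4, to 12 without regression replicate 6 and 15 without regression replicate 3. Over all genes these fits called 1518, 1280, 2601 and 4253, against 2195 with all libraries. Macrophage markers, all 10 of them higher, summed to 712 to 4274 CPM against 404.7 to 975 in lean libraries.

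In iWAT no member passed edgeR's test after 12 weeks, where 0.00719% of all genes were lower. The median was -0.41 and 44 of 45 estimates were below 0. By edgeR 28 members had an unadjusted p under 0.05, against 14.9% of all genes in either direction, and DESeq2 called 0. Ndufa12 (-0.59 ± 0.17, adjusted p = 0.134) and Ndufa10 (-0.57 ± 0.20, adjusted p = 0.187) had the lowest estimates. Ndufa12 had 28.8, 33.99 and 40.1 CPM in lean and 16.2, 22.9 and 30.1 in regression mice, which overlapped. Ndufaf6 (0.02 ± 0.29) was the highest, followed by Ndufa4l2 and Ndufaf5, both near 0. Brown and beige markers summed to 66.1 to 285 CPM against 362 to 700 in lean libraries, without a call for any of the 8.

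Over the 4 times in eWAT, Ndufa12, Ndufs1, Ndufs4 and Ndufv1 were among those called lower at 3, and Ndufa3, Ndufb4 and the assembly factors Ndufaf2 to Ndufaf6 at none. In iWAT Ndufa10, Ndufa8, Ndufab1, Ndufaf1 and Ndufs1 were called at 2 times. The share of all genes called at as many times was not computed in either depot.

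**Figure D4:**
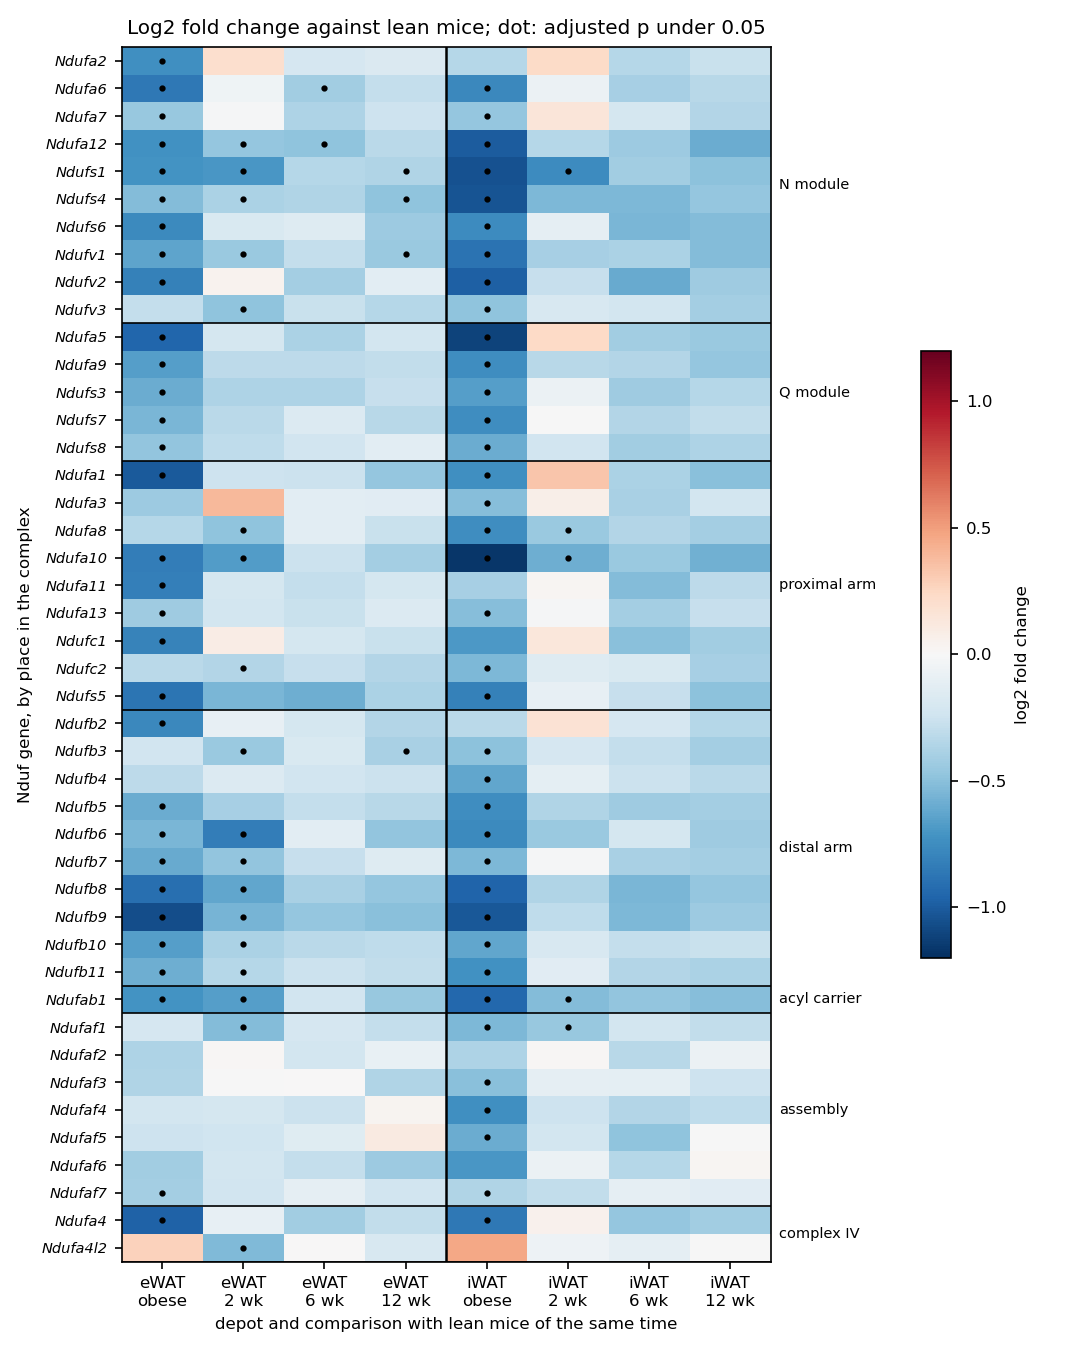
Log2 fold change against lean mice of the same age for 44 Nduf genes (lines of the grid, grouped by role) at obesity and after 2, 6 and 12 weeks of regression in each depot (colour scale in log2 units), with a black dot for an adjusted p under 0.05. The obese columns hold 31 dots in eWAT and 37 in iWAT, the 12-week columns 4 and 0.

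Tested directly, the log2 difference from lean mice moved upward from obesity to 2 weeks for 4 members in eWAT and 2 in iWAT. An upward move need not be a smaller distance, since Ndufa3 in eWAT was estimated above 0 after 2 weeks. In either direction 13 and 22 members had an unadjusted p under 0.05 (edgeR), against 19.5% and 20.9% of all genes. In eWAT Ndufa2 (0.94 ± 0.27, adjusted p = 0.0278), Ndufv2 (0.85 ± 0.26, adjusted p = 0.0462), Ndufa3 (0.83 ± 0.25, adjusted p = 0.0400) and Ndufa6 (0.81 ± 0.20, adjusted p = 0.0095) changed upward, against 2.09% of all genes. Replicate 2 of the 2-week regression group, the shallow library, had the highest Ndufa2 (33.3 CPM, group median 14.2) and Ndufv2 (43.7 CPM, the others 12.6 to 20.8). In iWAT Ndufa5 (1.35 ± 0.32, adjusted p = 0.0108) and Ndufs7 (0.74 ± 0.22, adjusted p = 0.0467) changed upward, against 1.89% of all genes. There 44 of 45 estimates were above 0, and the lean libraries at 2 weeks, themselves low in iWAT, enter this change. In eWAT the lean median of the members' mean log2 CPM was 4.47 at 2 weeks and 4.67 at the obesity time. Between these lean groups 43 of 45 estimates were below 0, and 5 had an unadjusted p under 0.05 (edgeR), against 7.82% of all genes. The eWAT medians of regression mice at 2 weeks and of obese mice were 4.14 and 4.13. After 6 and 12 weeks the eWAT medians were 4.19 and 4.19 in regression mice and 4.44 and 4.52 in lean mice. The higher lean group of the obesity time thus enters each change from obesity in eWAT. No change from obesity to 6 or 12 weeks was called for a member in either depot by edgeR or by DESeq2. There 8 and 9 members had an unadjusted p under 0.05 in eWAT and 9 and 6 in iWAT by edgeR. Of all genes 11.1% and 14.4% did in eWAT and 16.9% and 19.3% in iWAT. After adjustment 0.314% and 0.726% of all genes in eWAT and 0.863% and 2.35% in iWAT were called upward.

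Set directly against the obese mice, a comparison added after the data were seen that takes no account of age, 2-week regression eWAT had higher Ndufa2 (0.68 ± 0.20, adjusted p = 0.0230) and Ndufa6 (0.56 ± 0.15, adjusted p = 0.0116), where 2.94% of all genes were higher. In iWAT Ndufa5 was higher (0.84 ± 0.23, adjusted p = 0.0216), where 2.04% of all genes were. Both shares are close to those over all genes. After 12 weeks 6 members were higher than in obese iWAT, against 6.01% of all genes: Ndufa5 (0.72 ± 0.23), Ndufv2 (0.58 ± 0.19), Ndufs1 (0.57 ± 0.18), Ndufs7 (0.48 ± 0.16), Ndufb10 (0.45 ± 0.14) and Ndufb11 (0.37 ± 0.13). Of the 45 estimates 44 were above 0. In eWAT 0 members were called, where 1.26% of all genes were higher. By edgeR 5 members had an unadjusted p under 0.05 there, against 15.5% of all genes in either direction. These comparisons and those with lean mice share the regression libraries.

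Other parts of the respiratory chain fell with obesity in both depots. In eWAT 5 of 7 complex II genes (median -0.41), 9 of 9 of complex III (-0.62), 11 of 11 tested of complex IV (-0.84) and 14 of 15 of ATP synthase (-0.65) fell. In iWAT the counts were 6 of 7 (-0.74), 9 of 9 (-0.93), 12 of 12 (-0.86) and 13 of 15 (-0.66). Cox8b, a complex IV subunit of muscle and brown fat, fell by 1.67 ± 0.44 in eWAT and 1.76 ± 0.40 in iWAT on the log2 scale, and citrate synthase (Cs), an enzyme of the matrix, by 0.74 ± 0.19 and 0.98 ± 0.20. After 2 weeks the complex IV counts were 2 of 11 in eWAT and 0 of 12 in iWAT, and those of complex II 5 of 7 and 4 of 7. After 12 weeks complex III had 4 of 9, complex IV 2 of 11 and ATP synthase 3 of 15 lower in eWAT, and none was called in iWAT. Whether complex I differed from these complexes was not tested.

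**Figure D5:**
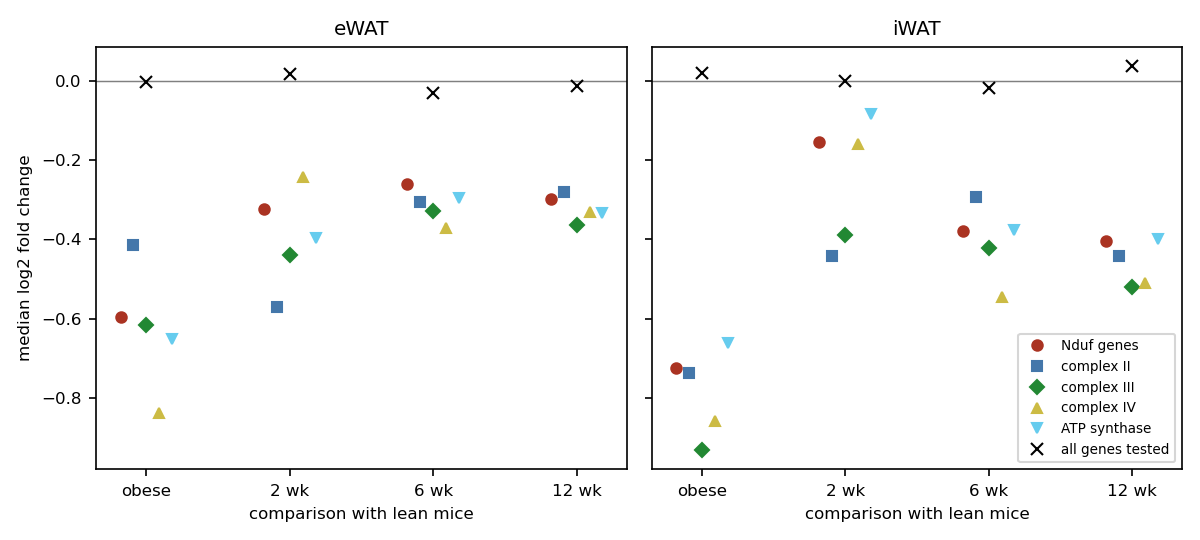
Median log2 fold change against lean mice of the Nduf genes, complexes II to IV and ATP synthase, with all tested genes marked by x, at obesity and after 2, 6 and 12 weeks of regression in eWAT and iWAT. In obesity the medians of the complexes lie between -0.41 and -0.93, while that of all genes is near 0.

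Of 8 complex I assembly factors without the Nduf name, 4 fell in obese eWAT: Nubpl, which delivers iron-sulphur clusters to complex I (-1.29 ± 0.30), Ecsit, a partner of Ndufaf1 (-0.44 ± 0.14), Tmem70 (-0.42 ± 0.14) and Timmdc1 (-0.29 ± 0.11). In obese iWAT 6 of 8 fell, Nubpl (-0.89 ± 0.25) and Tmem70 (-0.76 ± 0.15) among them. Acad9, which also works in the assembly complex of Ndufaf1, was at 0.07 ± 0.13 and -0.09 ± 0.12 and was called in neither.

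Of 12 regulators of mitochondrial gene expression, 3 fell and 1 rose in obese eWAT, and 5 fell in obese iWAT. The coactivators Ppargc1a (-1.04 ± 0.22 in eWAT, -1.03 ± 0.25 in iWAT) and Ppargc1b (-1.17 ± 0.21, -1.57 ± 0.22) and Tfam, which packages and transcribes mitochondrial DNA (-0.21 ± 0.07, -0.37 ± 0.10), fell in both. Esrra, an oestrogen-related receptor, fell in iWAT (-0.52 ± 0.16) and was at -0.03 ± 0.14 in eWAT. Perm1, known from muscle, rose in eWAT (1.79 ± 0.54, adjusted p = 0.0137). The factors of the 2 motifs marked in the promoters printed above were not called in obesity: Nrf1 was at 0.13 ± 0.12 in eWAT and 0.03 ± 0.12 in iWAT, and Yy1 at -0.13 ± 0.09 and -0.08 ± 0.08. Gabpa, whose motif is in none of the printed stretches, was at 0.15 ± 0.10 and -0.11 ± 0.09.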

How the data were processed

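The libraries were bulk poly(A) RNA-seq with paired-end reads, 1 per depot and mouse. Per the submitters' processing notes, the tools were STAR 2.4.1c, DESeq2 1.38.3 and R 4.2.2, and the build was mm10. The sources used here do not name the counting program or its strand setting. The deposited values analysed were read counts per gene symbol. The authors' deposited comparison tables also hold a mean signal of normalised counts, log2 fold changes with their errors, a score (the Wald statistic) and a p-value with its adjusted form per gene; these gave only the counts named as the authors' below.

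All genes passing edgeR's expression filter were fitted at once per depot over its 8 groups with edgeR 4.0.16 (R 4.3.3), using TMM scaling and the quasi-likelihood test, and p-values were adjusted by Benjamini-Hochberg over all of them, with 0.05 as the threshold for a call. Tests between depots were fitted in edgeR with the mouse as a term, since both depots came from the same mice. CPM used the library sizes scaled within each depot, and log2 CPM a prior count of 2. The procedure was also run on simulated data in which 200 genes were changed in the obese group alone. Its outcome is not given here, and it did not cover the regression comparisons. DESeq2 1.42.0 and limma 3.58.1 gave alternatives, as did other scaling, filters, lean groups and terms for signals of other cells, and leaving out each library. The macrophage term, the pooled lean mice and the depot test in lean mice of low iWAT muscle signal were added after the data were seen. So were the comparisons with the obese mice and of the lean mice at 2 weeks.

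The members and lists were chosen with earlier results of these data known. Members named with values were taken from the 7 core subunits encoded in the nucleus, Ndufa4, Ndufa4l2 and Ndufab1, the 3 lowest and 3 highest fold changes of each comparison, the 2 lowest and 2 highest assembly factors in obesity, and the 3 smallest p-values of each test between depots; others named were picked after their values were seen. The values of 1 member are not reported here, though it counts among the 45. Transcript lengths came from the lowest-numbered protein-coding GENCODE transcript of each gene, promoters from RefSeq on GRCm38.p6. Groups followed the labels, whose replicate numbers name different mice and were not used to pair them, and the intervals between mice are those of separate animals that shared cages, with the cages not given.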

Additional observations from a re-analysis of the deposited data

Results flagged for a closer look

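A library stood far from the rest of its group, by Dixon's test at the 95% level, in 7 of 160 groups tested, each being 1 of 6 core subunits, Ndufa4, Ndufa4l2, Ndufab1 or the mean of the 45 members in 1 of 16 groups of mice. Chance alone gives about 1 in 20 groups, so the number is no larger than chance gives. Lean eWAT replicate 5 of the obesity time was low for Ndufv1 (74.4 CPM, the others 98.7 to 108) and for Ndufs1 (74.4 CPM, the others 93.5 to 103). Replicate 3 of the same lean eWAT group was high for Ndufs8 (25.5 CPM, the others 15.8 to 19.1).

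In eWAT after 2 weeks of regression, replicate 2, the shallowest library of eWAT, was high for Ndufv2 (43.7 CPM, the others 12.6 to 20.8). After 6 weeks of regression in eWAT, replicate 4 was high for Ndufs8 (19.4 CPM, the others 13.7 to 15.1) and replicate 3 for Ndufa4l2 (18.6 CPM, the others 9.40 to 12.4). In lean iWAT of the 2-week time, replicate 3 was high for Ndufv2 (28.7 CPM, the others 17.6 to 21.4).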

How the results depend on the processing

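The counts of called members in obesity, 32 in eWAT and 38 in iWAT, stayed within 1.5 times under other scaling, filters, DESeq2, the replicate block, other lean mice and terms for other tissue, and moved with terms for fat or immune cells. With the adipocyte signal as a term the eWAT counts were 19 (obese), 3 (2 weeks), 0 (6 weeks) and 1 (12 weeks). The iWAT counts were 21 (obese), 15 (2 weeks) and 25 (6 weeks), and that of the iWAT change to 2 weeks 0. Over all genes this term gave 1246, 3242, 894 and 1617 calls in eWAT, against 3346, 5111, 1086 and 2195 without it. In iWAT it gave 2826, 3372 and 1190, against 4195, 2614 and 144, and for the change 701 against 556. With the macrophage signal the eWAT counts were 1, 0, 0 and 0 and the iWAT counts 17 (obese) and 1 (2 weeks). The signals of other tissue were epididymal duct markers in eWAT, and skeletal muscle with B cell and lymph node markers in iWAT. The summed duct markers reached 5770 CPM in lean eWAT (6 weeks, replicate 5). With signals of other tissue, 12-week eWAT had 8, the eWAT change to 2 weeks 1, and iWAT 11 (2 weeks), 1 (6 weeks) and 10 (12 weeks). Over all genes these terms for other tissue gave 2298 and 732 calls in eWAT and 3012, 226 and 410 in iWAT, in the same order. Against all lean mice of a depot, eWAT had 19 (6 weeks) and 20 (12 weeks) and iWAT 34 (2 weeks). There 3683, 3946 and 6438 of all genes were called. With only the compared groups fitted, eWAT had 0 (6 weeks) and iWAT 2 (2 weeks) and 1 (6 weeks). Of all genes 988, 1347 and 376 were called in those fits. DESeq2 called 9 in 12-week eWAT, 2 in 6-week iWAT and 4 for the iWAT change to 2 weeks, and its size factors in edgeR gave 1 in 6-week eWAT. Without a count filter 6-week eWAT had 0, the eWAT change to 2 weeks 2 and the iWAT change 1. A term for the series a mouse number belongs to gave 1 in 6-week eWAT (1102 of all genes). In iWAT it gave 8 and 2 after 2 and 6 weeks and 6 for the change to 2 weeks (2778, 205 and 751 of all genes). The lean depots, compared by limma in the 5 of 24 lean mice with an iWAT muscle signal under 1 log2 CPM, gave 2. That fit differs from the reported one in method and number of mice as well. The cause of these shifts was not tested.

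The replicate block, which pairs mice by a number that names different animals, gave 0 in 6-week eWAT, 2 in 6-week iWAT and 5 for the iWAT change to 2 weeks. Over all genes its calls there were 859, 151 and 698. After each gene's group mean was subtracted from log2 CPM, the remainders of same-numbered libraries of compared groups correlated at -0.596 to 0.629. In no comparison were all pairs over 0.1.

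Leaving out single libraries gave 20 to 36 called members in obese eWAT (20 without obese replicate 4), 0 to 8 in 6-week eWAT (8 without regression replicate 4), 0 to 15 in 12-week eWAT, 1 to 6 for the change to 2 weeks in eWAT and in iWAT, 2 to 10 in 2-week iWAT (10 without lean replicate 2) and 0 to 2 in 6-week iWAT (2 without regression replicate 4).

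Estimates of single members that changed sign were small or not called in the reported fit, except under the macrophage term for Ndufa10, Ndufab1 and Ndufv1 in 2-week eWAT and Ndufs1 and Ndufv1 in 12-week eWAT. Under the macrophage term the log2 fold changes that turned were, in obese eWAT, Ndufaf1 0.16 and Ndufaf4 0.13. In 2-week eWAT they were Ndufa10 0.090, Ndufa4 0.52, Ndufab1 0.087, Ndufs3 0.014, Ndufs7 0.10 and Ndufv1 0.12. In 6-week eWAT they were Ndufa4 0.017, Ndufa4l2 -0.014, Ndufab1 0.25, Ndufaf7 0.080, Ndufb9 0.078, Ndufs7 0.12 and Ndufv1 0.11. In 12-week eWAT they were Ndufa4 0.21, Ndufab1 0.16, Ndufaf2 0.38, Ndufb6 0.045, Ndufb9 0.16, Ndufs1 0.034, Ndufs3 0.035, Ndufs7 0.015, Ndufs8 0.020, Ndufv1 0.023 and Ndufv2 0.33. In iWAT they were Ndufb2 0.15 (obese), Ndufa4l2 0.14, Ndufs3 0.087 and Ndufs7 0.16 (2 weeks), and Ndufa4l2 0.13 and Ndufaf5 0.052 (12 weeks).

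Under the adipocyte term Ndufaf1 0.030 (obese), Ndufa4 0.21 (2 weeks), Ndufa4l2 -0.0071 (6 weeks) and Ndufaf2 0.013 (12 weeks) turned in eWAT, and Ndufb2 0.12 (obese), Ndufa4 -0.053 (2 weeks), Ndufa4l2 0.065 and Ndufaf5 0.069 (12 weeks) in iWAT. Against all lean mice, Ndufc1 -0.046 and Ndufv2 -0.077 (2 weeks), Ndufaf3 -0.17 (6 weeks) and Ndufaf4 -0.12 (12 weeks) turned in eWAT. In iWAT Ndufa1 -0.15, Ndufa2 -0.090, Ndufa4 -0.47 and Ndufa5 -0.18 (2 weeks), Ndufa4l2 0.11 (6 weeks), and Ndufa4l2 0.10 and Ndufaf6 -0.0083 (12 weeks) did. With DESeq2 Ndufv2 was -0.0018 in 2-week eWAT. Under the replicate block Ndufa4l2 was -0.0039 in 6-week eWAT and 0.021 in 12-week iWAT, and Ndufa4 -0.021 in 2-week iWAT. With the term for number series Ndufa4l2 was -0.00029 in 6-week eWAT, Ndufa4 -0.0089 in 2-week iWAT, and Ndufa4l2 0.017 and Ndufaf5 0.0016 in 12-week iWAT. With signals of other tissue Ndufa4l2 was -0.030 and Ndufaf3 -0.0074 in 6-week eWAT, Ndufa4 -0.11 in 2-week iWAT and Ndufaf6 -0.026 in 12-week iWAT. Without a count filter Ndufs7 was 0.0063 in 2-week iWAT, and Ndufa4l2 0.0062 and Ndufaf5 0.0038 in 12-week iWAT. With only the compared groups fitted Ndufa4l2 was 0.0036 in 12-week iWAT.

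Leaving out single libraries turned members whose estimates ran as follows. In 2-week eWAT Ndufa2 ran from -0.0087 to 0.31, Ndufa4 from -0.20 to 0.028, Ndufc1 from -0.097 to 0.23 and Ndufv2 from -0.18 to 0.19. In 6-week eWAT Ndufa4l2 ran from -0.15 to 0.11 and Ndufaf3 from -0.052 to 0.054, and in 12-week eWAT Ndufaf2 from -0.25 to 0.010 and Ndufaf4 from -0.074 to 0.11. In 2-week iWAT Ndufa4 ran from -0.18 to 0.18, Ndufa4l2 from -0.21 to 0.093, Ndufs3 from -0.15 to 0.028 and Ndufs7 from -0.11 to 0.085. In 6-week iWAT Ndufa4l2 ran from -0.29 to 0.018, and in 12-week iWAT Ndufa4l2 from -0.13 to 0.17, Ndufaf5 from -0.11 to 0.073 and Ndufaf6 from -0.11 to 0.19. Ndufaf6, Ndufs5 and Ndufc1 had mean levels under 5 CPM in both depots, where depth limits the precision most.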
